A study of Macaca fascicularis with 6 samples.

Results

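The genes of MHC antigen presentation were followed through the life of a cartilage allograft in the cynomolgus monkey, from iPS cells to cartilage organoids and on to the transplant recovered from the knee. The set was fixed by symbol. It holds B2M, TAP1, TAP2, TAPBP, NLRC5, CIITA, CD74, PSMB8 and PSMB9 where the expression matrices list them, together with every symbol that starts with Mafa- (the MHC of this macaque) or HLA- (macaque genes that carry the name of their human counterpart). Of the 9 named genes 8 are listed and PSMB8 is not. The prefixes add 3 Mafa- and 5 HLA- symbols, which gives 16 genes of 14020 in the 4-sample matrix and of 13950 in the matrix of cells before transplantation.

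The study transplanted cartilage organoids made from iPS cells (cyiPS-Cart) into chondral defects of the knee of monkeys 3 to 4 years old, and read single cells by TAS-Seq, a whole-transcriptome method on BD Rhapsody beads. The conditions were undifferentiated iPS cells (cyiPSC, 2500 cells), pre-transplant cyiPS-Cart (3527 cells in the matrix with cyiPSC and 320 in the matrix with the other tissues), post-transplant cyiPS-Cart taken 4 months after surgery (320 cells), intact articular cartilage (cyAC, 320 cells) and fibrous tissue that had grown in empty defects (cyFT, 320 cells). All graft cells come from 1 line, 1466A1, which was derived from a male monkey homozygous for its MHC haplotype and carries EGFP under a constitutive promoter at the AAVS1 locus. cyAC and cyFT are tissue of wild-type monkeys, and how many animals each library pools is not named in the sources used here. The label of the post-transplant library gives the wild-type genotype of the recipient, but all 11 cells with CD74 reads and all 309 others in it held GFP-polyA reads. Tissue was digested to release its cells, and live cells were selected by staining and sorting.

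MHC class I molecules show peptides from inside a cell to CD8+ T cells and NK cells. A polymorphic heavy chain pairs with the light chain B2M in the endoplasmic reticulum. Its peptides are cut by the proteasome, into which the interferon-inducible subunit PSMB9 can be built, pumped in by the transporter TAP1/TAP2, and loaded with the help of tapasin (TAPBP). NLRC5 is the transcriptional activator of this group. Class II molecules show peptides taken up from outside to CD4+ T cells, mainly on macrophages, dendritic cells and B cells. They are assembled on the invariant chain CD74, have their peptides exchanged by the HLA-DM and HLA-DO molecules, and are switched on by the activator CIITA. Both groups can be raised in other cells by interferon. Articular chondrocytes lie in a dense matrix without vessels and are often described as shielded from T cells.

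Each condition is 1 sample, so no test between conditions was possible. Levels are CPM, the reads of a gene summed over the cells of a sample and scaled to a total of 1000000. The 95% intervals (exact Poisson for a level, exact conditional for a ratio, Clopper-Pearson for a share of cells) cover counting error only, and the reads are not independent molecules. Pre-transplant cells shared a library with cyiPSC, cyAC shared one with cyFT, and post-transplant cells had their own, so library and condition cannot be told apart in post- against pre-transplant cyiPS-Cart or against cyAC. In the 4-sample matrix, total reads per sample ran from 11087496 in cyFT to 29855420 in post-transplant cyiPS-Cart, and median reads per cell from 27499.5 to 80335.5. In the other matrix cyiPSC had 415457877 reads and pre-transplant cells 240368262, with medians of 143075 and 59249 per cell. Between 0 and 4 barcode numbers were shared by any 2 libraries. The cartilage marker ACAN had reads in 96.6% to 99.7% of cells of each of the 4 samples, COL2A1 in 36.6% of cyFT cells against 87.2% to 97.5% of the others. The background correction of the authors sets low counts to 0 in genes with high maxima. The smallest nonzero CD74 count was 1 read in pre-transplant cells but 13 in post-transplant, 25 in cyFT and 32 in cyAC cells, so shares of cells with CD74 are not compared between samples. Summed CD74 levels carry the same difference. CD74 levels and class II sums of pre-transplant cells therefore cannot be set directly against those of the other 3 tissues. The alleles of the donor line and of the wild-type animals can differ in how well their reads match the reference transcripts, and reads of the class I heavy chains may be split between similar copies. Levels of Mafa-B, HLA-F and Mafa-DRB between graft and host tissue are uncertain for that reason. B2M and CD74 are far less polymorphic.

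Class I genes stood far higher in the transplant than in the organoids it came from. B2M had 310 CPM (303 to 318) in pre-transplant cyiPS-Cart, 2874 CPM (2855 to 2893) in post-transplant cyiPS-Cart, 1000 CPM (982 to 1018) in cyAC and 1890 CPM (1864 to 1916) in cyFT. The transplant therefore had the highest level of the light chain and the organoids the lowest, with none of the 4 intervals overlapping. The post-transplant level was 9.26-fold (9.03 to 9.50) the pre-transplant level and 2.87-fold (2.82 to 2.93) that of cyAC.

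The heavy chains followed the same order only in part. HLA-F, in humans a class I molecule of limited polymorphism, had 218, 951, 175 and 307 CPM in pre-transplant, post-transplant, cyAC and cyFT cells. Mafa-B, a classical class I heavy chain of the macaque, had 404, 1201, 557 and 682 CPM in the same order. Both were highest in the transplant, and cyAC and the pre-transplant organoids took the lowest places, cyAC for HLA-F and the organoids for Mafa-B. Post- over pre-transplant the ratio was 4.37 (4.23 to 4.51) for HLA-F and 2.97 (2.90 to 3.04) for Mafa-B. Summed, the 2 heavy chains had 622 CPM before and 2152 CPM after transplantation, a ratio of 3.46 (3.39 to 3.52), which is smaller than that of B2M.

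**Figure D1:**
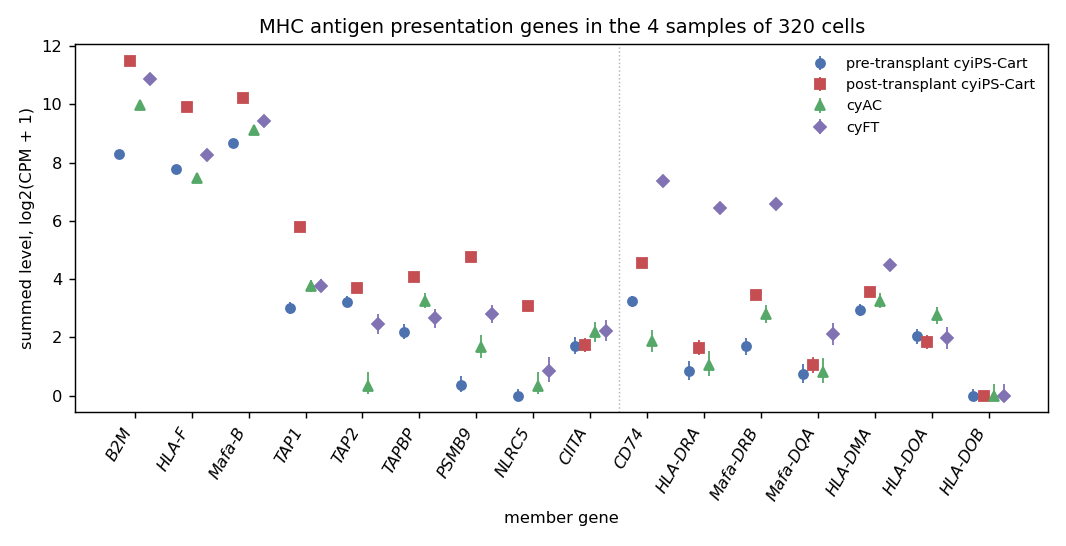
Levels of the 16 genes in the 4 samples of the shared matrix as log2(CPM + 1) on the vertical axis, 1 point per sample, with the genes on the horizontal axis and a dotted line between the class I genes with CIITA on one side and the class II genes on the other. Post-transplant cyiPS-Cart has the highest point for B2M (2874 CPM), HLA-F (951 CPM) and TAP1 (53.8 CPM), and cyFT the highest for CD74 (165 CPM) and HLA-DRA (86.5 CPM).

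The higher levels were spread over most cells of the transplant. The median cell had a B2M level of 255 CPM before and 1658 CPM after transplantation, against 721 CPM in cyAC and 1200 CPM in cyFT. Of 320 post-transplant cells, 246 (76.9%) lay above the 95th percentile of the pre-transplant cells for B2M, 224 (70.0%) for HLA-F and 190 (59.4%) for Mafa-B. Against the 95th percentile of cyAC cells, 82 post-transplant cells (25.6%) lay higher for B2M and 215 (67.2%) for HLA-F. Within the transplant the middle range of cells was wide, from a lower quartile of 820 CPM to an upper quartile of 3868 CPM for B2M, with a maximum of 25467 CPM in 1 cell.

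**Figure D2:**
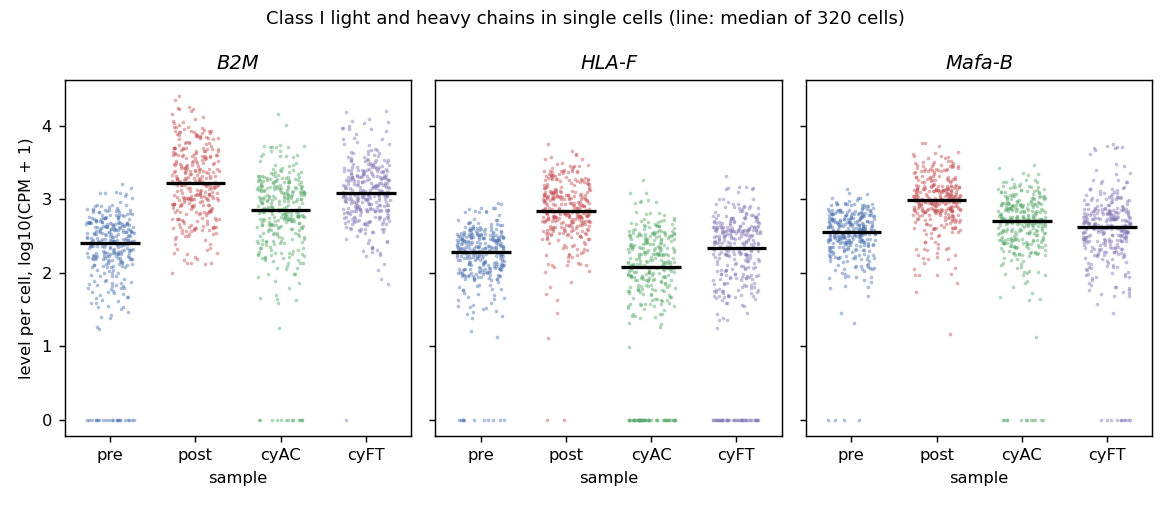
Level of B2M, HLA-F and Mafa-B in each cell as log10(CPM + 1) on the vertical axis, by sample on the horizontal axis, with 320 cells per sample and a line at the median. The post-transplant cells are shifted upward as a body, with a median B2M level of 1658 CPM against 255 CPM in pre-transplant cells, and 76.9% of them lie above the pre-transplant 95th percentile.

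Of the members that supply or load class I peptides, TAP1, PSMB9 and TAPBP were at least 2-fold higher in the transplant and TAP2 was not, each of them below 10 CPM before it. TAP1, a subunit of the peptide transporter, had 7.04, 53.8, 12.6 and 12.7 CPM in pre-transplant, post-transplant, cyAC and cyFT cells. Its post-transplant level was 7.64-fold (6.46 to 9.09) the pre-transplant one and 4.27 times that of cyAC. PSMB9, the immunoproteasome subunit, had 0.282, 26, 2.20 and 5.95 CPM, and its post- over pre-transplant ratio of 92.2 (42.2 to 252) rests on 6 reads in the organoids. TAPBP had 3.57, 15.7, 8.63 and 5.32 CPM, a post- over pre-transplant ratio of 4.41 (3.46 to 5.70).

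TAP2, the partner of TAP1 in the transporter, did not pass 2-fold after transplantation. It had 8.36 CPM in pre-transplant, 12.1 CPM in post-transplant, 0.254 CPM in cyAC and 4.51 CPM in cyFT cells. Post over pre the ratio was 1.45 (1.21 to 1.74), and over cyAC it was 47.7 (16.2 to 232), where all 3 cyAC reads lay in 1 cell. NLRC5 had 0 reads in pre-transplant cells and 7.40, 0.254 and 0.812 CPM in post-transplant, cyAC and cyFT cells. Its post-transplant level was at least 52.5-fold higher than the floor of 3 reads that a count of 0 allows in the pre-transplant sample. The NLRC5 reads of the transplant came from 12 cells (3.75%), and 36.2% of them from 1 cell.

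More cells of the transplant held reads of TAP1 and PSMB9, and depth set part of the share. TAP2 had reads in 10.3% of post-transplant and 10.6% of pre-transplant cells. TAP1 had reads in 32.2% of post-transplant cells, 9.69% of pre-transplant, 7.81% of cyAC and 5.94% of cyFT cells. With every cell thinned to 12191 reads, the shares were 16.3%, 3.76%, 4.87% and 5.90%. PSMB9 had reads in 23.1% of post-transplant cells and 1.25% of pre-transplant cells, and 9.69% and 0% when thinned. The 4 samples lost 1 pre-transplant, 0 post-transplant, 12 cyAC and 32 cyFT cells to thinning. TAP1 and PSMB9 thus kept the highest share in the transplant at equal depth. No cell type of these samples is known to lack the class I genes, so there was no share of free RNA to set beside them.

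Across all genes, 10 of the 16 members had at least 10 CPM in pre- or post-transplant cyiPS-Cart, the minimum for a comparison, where a difference of at least 2-fold on the scale of CPM + 1 was counted. After transplantation 8 of the 10 were at least 2-fold higher (B2M, HLA-F, Mafa-B, TAP1, TAPBP, PSMB9, CD74 and Mafa-DRB) and 0 were lower. Among all 7587 genes compared, 8.92% were at least 2-fold higher and 18.5% at least 2-fold lower, and the median log2 ratio was -0.25, against 1.82 for the members. With TMM factors, 12.7% of all genes were higher and 12.8% lower and the median of all genes moved to -0.02, and again 8 members were higher. Of the 10, B2M, HLA-F and Mafa-B reached 10 CPM before transplantation and the others entered through the post-transplant sample, so the count describes the set and supports nothing further. CD74 and Mafa-DRB rested on few cells. Their smallest nonzero counts were 13 and 15 reads in the transplant but 1 read before it. Low counts kept before transplantation may thus have been set to 0 after it. With cells of few genes or a high mitochondrial share left out, CD74 fell to a log2 ratio of -0.13 and Mafa-DRB to 0.71.

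Against cyAC, 7 of 10 members were at least 2-fold higher in the transplant (B2M, HLA-F, Mafa-B, TAP1, TAP2, CD74 and PSMB9) and 0 lower, beside 10.7% of all 7621 genes higher and 15.8% lower, with a median of 1.77 for the members and -0.08 for all genes. PSMB9 stood at 11.8 times, HLA-F at 5.42 times and Mafa-B at 2.16 times its cyAC level. TAPBP and Mafa-DRB stayed within 2-fold, at ratios of 1.83 and 1.67. Of the 10, TAP2, TAPBP, PSMB9, CD74, HLA-DMA and Mafa-DRB entered through the transplant alone. The comparisons of the transplant with the organoids and with cyAC share the post-transplant sample. With the stricter cell filter 4 of 6 members were higher, beside 10.6% of all genes, and Mafa-B had a log2 ratio of 0.99.

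**Figure D3:**
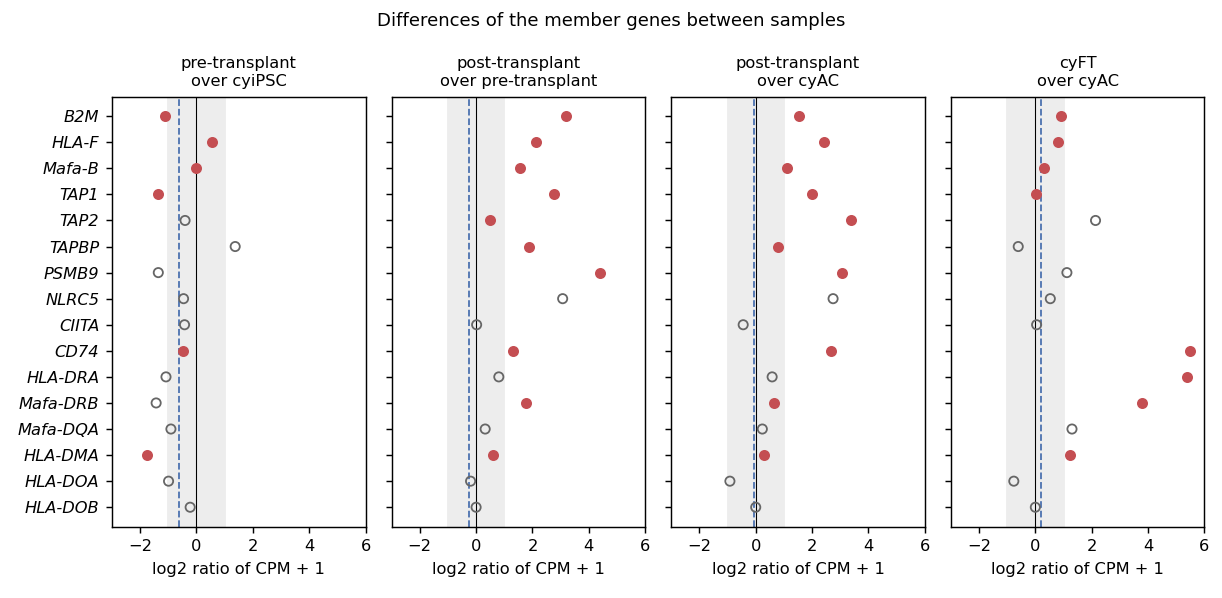
Log2 ratio of CPM + 1 for each of the 16 genes in 4 comparisons, 1 panel each, with filled points for genes that reach 10 CPM in one sample or the other, open points for those that do not, a grey band for differences within 2-fold and a dashed line at the median of all genes compared. In the post- over pre-transplant panel 8 of 10 filled points lie right of the band, and in the pre-transplant over cyiPSC panel 3 of 6 lie left of it.

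B2M and TAP1 were lower in the organoids than in the iPS cells they were made from, and the heavy chains stayed within 2-fold. B2M had 669 CPM in cyiPSC and 306 CPM in the 3527 pre-transplant cells, a level 2.18-fold (2.17 to 2.20) higher in cyiPSC. TAP1 stood at 17.8 and 6.35 CPM and the class II peptide exchanger HLA-DMA at 25.7 and 6.93 CPM, 2.80-fold and 3.71-fold higher in cyiPSC. HLA-F had 145 CPM in cyiPSC and 211 CPM in pre-transplant cells, and Mafa-B 400 and 393 CPM. Of 6 members compared, 0 were at least 2-fold higher in pre-transplant cyiPS-Cart and 3 lower (B2M, TAP1 and HLA-DMA), beside 16.5% of all 8576 genes higher and 37.4% lower. The median log2 ratio was -0.80 for the members and -0.61 for all genes, and TAP1 and HLA-DMA entered through cyiPSC alone.

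The 2-fold call depends on the scaling. With TMM factors, 26.4% of all genes were higher and 18.8% lower in the organoids, with the median of all genes at 0.09. B2M and TAP1 then had log2 ratios of -0.46 and -0.74, within 2-fold, HLA-DMA remained lower at -1.13, and HLA-F passed 2-fold at 1.20. Of the 320 pre-transplant cells of the 4-sample matrix, 300 are also among the 3527, and their member counts were identical.

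Other steps of class I presentation stood near all genes, of which 8.92% were higher and 18.5% lower with a median of -0.25. Of 11 further genes of peptide supply and loading, 8 could be compared between post- and pre-transplant cyiPS-Cart, 0 were at least 2-fold higher and 2 lower, with a median of -0.29. The lower ones were PSME3, a cap of the nuclear proteasome (145 to 46.6 CPM), and HSPA5, the main chaperone of the endoplasmic reticulum (2475 to 449.6 CPM). PSME1 and PSME2, the interferon-inducible proteasome caps, stood at 67.7 and 44.0 CPM after transplantation against 40.4 and 42.3 CPM before. Of the 4 listed subunits of the constitutive proteasome, 0 were higher and PSMA1 was lower (229.7 to 93.5 CPM), with a median of -0.52. Against cyAC, PSME3 and ERAP1, the peptide trimming enzyme, were lower among 10 genes, and 0 of 4 proteasome subunits passed 2-fold, beside 10.7% of all genes higher and 15.8% lower.

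Several genes that respond to interferon were higher in the transplant. Of 23 listed, 12 could be compared with pre-transplant cyiPS-Cart, 9 were at least 2-fold higher (ISG15, IFI6, IFI27, MX1, IFIT1, IFIT2, IFIT3, OAS3 and XAF1) and WARS1 was lower, with a median of 3.05, beside 8.92% of all genes higher and 18.5% lower. Of the 9, all but IFI6 were below 10 CPM before transplantation and entered through the post-transplant sample, so the count and median are a description. IFI6, a mitochondrial protein widely used as an interferon marker, had 33.5, 625, 92.3 and 119 CPM in pre-transplant, post-transplant, cyAC and cyFT cells and had reads in 38.4% of cells before and 96.9% after transplantation. WARS1, a tRNA synthetase that interferon gamma induces, went the other way, from 133 to 21.4 CPM. Its level in cyAC was 45.6 CPM.

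A single cell weighed on several of these genes. The post-transplant cell with the most member reads held 4.99% of all member reads of its sample, 41.0% of the IFIT1 reads and 61.2% of the MX1 reads, and had reads of 18 of the 23 interferon genes, where no other cell of the sample had more than 13 and the median was 3. Without it, 8 of 11 genes were higher than in pre-transplant cells, with a median of 2.29. Against cyAC 8 of 12 became 5 of 11, with the median falling from 1.59 to 0.92. WARS1 stayed lower in both comparisons. Of the 8 higher than in cyAC, only IFI6 reached 10 CPM there, and the others entered through the transplant. Of the members, without that cell 6 of 9 were higher than before transplantation, which leaves out CD74 and Mafa-DRB. Against cyAC 7 of 9 members were higher. With all cells kept, 8.92% of all genes were higher and 18.5% lower than before transplantation, and 10.7% and 15.8% against cyAC.

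Between post- and pre-transplant cells, receptors and kinases of interferon signaling were called at about the share of all genes (8.92% higher and 18.5% lower). Of 10 compared between post- and pre-transplant cells, IRF9, a subunit of the factor that type I interferon activates, was higher (17.7 to 40.9 CPM), and IFNGR1, the ligand-binding chain of the interferon gamma receptor, and JAK2 were lower (59.9 to 22.2 and 171 to 65.9 CPM), with a median of -0.74. Against cyAC, IFNGR1, JAK2 and TYK2 were lower of 11 compared, beside 15.8% of all genes lower and 10.7% higher.

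Within the transplant, the light and heavy chains of class I were correlated from cell to cell. Across its 320 cells the log2(CPM + 1) of B2M had a Pearson correlation of 0.53 with HLA-F, 0.55 with Mafa-B, 0.45 with IFI6, 0.32 with PSMB9 and 0.23 with TAP1, and TAP1 had 0.26 with HLA-F and with Mafa-B. The same pair of B2M and HLA-F had -0.03 in pre-transplant cells, 0.08 in cyAC and 0.13 in cyFT. HLA-F and Mafa-B had 0.75 in the transplant and 0.27, 0.40 and 0.41 in pre-transplant, cyAC and cyFT cells, and may share reads. The points of each correlation are cells of 1 library that differ in depth, and the samples differ in B2M and HLA-F reads per cell. B2M had a correlation of -0.12 with log2 reads per cell in the transplant and 0.20 in pre-transplant cells, and the part of depth in these values was not tested.

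No gene followed B2M or the heavy chains closely in all 4 samples. Of 2905 other genes with reads in at least 25% of cells of each sample, those most like B2M by the mean of the 4 correlations were COX3 (0.21), ATP6 (0.21), IFI6 (0.20), PSME1 (0.19) and CD99 (0.19). For the summed heavy chains they were C1S (0.15), THY1 (0.13), S100A10 (0.13), LMNA (0.13) and SMOC2 (0.13). COX3 and ATP6 are encoded by mitochondrial DNA. The median mitochondrial share of reads was 5.24% in pre-transplant, 1.68% in post-transplant, 3.37% in cyAC and 3.76% in cyFT cells, and its part in these values was not tested.

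The highest levels in the transplant were in cells with reads of COL1A1, the fibrous collagen. Of 320 post-transplant cells 54 had such reads. They had 6737 CPM of B2M against 2048 CPM in the other 266 cells, 1567 against 819 CPM of HLA-F, 1847 against 1062 CPM of Mafa-B, 178 against 27.3 CPM of TAP1 and 77.4 against 15.0 CPM of PSMB9. TAPBP differed less, at 21.1 and 14.6 CPM. Median reads per cell were close, at 80596 and 79730. Without the cell with the most member reads, the 53 others had 6184 CPM of B2M, 135 CPM of TAP1 and 64.6 CPM of PSMB9. The 266 cells without COL1A1 reads still had more B2M than the pre-transplant sample at 310 CPM. In cells with and without COL1A1 reads, B2M had 366 and 288 CPM in pre-transplant, 2045 and 940.0 CPM in cyAC and 1603 and 2170.0 CPM in cyFT cells. In cyFT the sums and the medians over cells differed in direction. The median cell had 1316 CPM with and 1109 CPM without COL1A1 reads, and 18 cells with reads of LYZ, a macrophage gene, held 33.5% of its B2M reads. These are cells of 1 sample, so the split is a description.

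Class II genes were low in the graft and in cartilage and high in fibrous tissue. CD74, the invariant chain, had 8.5, 22.8, 2.71 and 165 CPM in pre-transplant, post-transplant, cyAC and cyFT cells. HLA-DRA, the class II alpha chain, had 0.798, 2.14, 1.10 and 86.5 CPM, and Mafa-DRB, its beta partner, 2.25, 10.0, 6.0 and 95 CPM. cyFT had the highest level of all 3 by a wide margin. HLA-DMA, which exchanges peptides, was closer together at 6.72, 10.8, 8.63 and 21.6 CPM. Mafa-DQA had 0.657, 1.07, 0.761 and 3.34 CPM, and HLA-DOA, a brake on peptide exchange, 3.10, 2.58, 5.75 and 2.98 CPM. HLA-DOB had 0 reads in all 4 samples, an upper limit of 0.938% on the share of such cells with a read, for counting error alone.

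CIITA, the class II activator, did not separate the samples. It had 2.30 CPM (1.70 to 3.04) in pre-transplant, 2.34 CPM (1.83 to 2.96) in post-transplant, 3.55 CPM (2.56 to 4.80) in cyAC and 3.70 CPM (2.65 to 5.02) in cyFT cells. All 4 intervals overlapped, although the class II chains differed widely. In cyFT 1 of 10 cells with CD74 reads and 22 of 310 others had a CIITA read.

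Between the tissues of 1 library, 4 of 8 members were at least 2-fold higher in cyFT than in cyAC (CD74, HLA-DRA, Mafa-DRB and HLA-DMA) and 0 lower, beside 12.2% of all 7900 genes higher and 3.92% lower, with a median of 1.07 for the members and 0.19 for all genes. All 4 entered through cyFT alone. The ratios were 61.1 (43.1 to 89.5) for CD74, 78.7 (45.8 to 148) for HLA-DRA, 15.8 (12.4 to 20.4) for Mafa-DRB and 2.50 for HLA-DMA. The class I genes B2M, HLA-F, Mafa-B and TAP1 stayed within 2-fold, at 1.89, 1.75, 1.23 and 1.01. More cells of a type and more RNA per cell cannot be told apart in these sums, so the cells with reads of LYZ, the lysozyme of macrophages and neutrophils, were counted apart.

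LYZ reads were found in 18 of 320 cyFT cells (5.63%), 1 of 320 cyAC cells and 0 of the 320 cells of each of the other samples, where low counts may have been set to 0. The 18 cells held 96.7% of the class II and CD74 reads of cyFT. Summed over the class II chains and CD74, cyFT had 375 CPM in all cells, 4680 CPM in the 18 cells and 13.3 CPM (11.2 to 15.7) in the 302 cells without LYZ. The same sum was 22.0 CPM in pre-transplant cyiPS-Cart, 49.3 CPM in post-transplant cyiPS-Cart and 24.9 CPM in cyAC, and 25 CPM in cyAC without its 1 LYZ cell. The pre-transplant sum holds low CD74 counts of the kind that may have been set to 0 in the other samples. The ratio of cyFT to cyAC was 15.0 in all cells and 0.532 (0.431 to 0.654) without the LYZ cells. The latter ratio leaves in cyAC 3 cells with 71 Mafa-DRB reads, 1 of them with 32 CD74 reads, so the order of the 2 tissues without LYZ cells rests on few cells.

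By gene, the 18 cells held 98.6% of the CD74 reads, 100% of the HLA-DRA and Mafa-DRB reads, 94.6% of the Mafa-DQA reads and 68.2% of the HLA-DMA reads of cyFT, but 3.03% of the HLA-DOA reads. The smallest nonzero count in cyFT was 19 for HLA-DRA and 26 for Mafa-DRB, so low counts in other cells may have been set to 0 there, while pre-transplant cells kept counts of 1, and the 13.3 CPM of cyFT without LYZ cells cannot be set directly against the 22.0 CPM of pre-transplant cells. The 18 cells also held 33.5% of the B2M and 36.2% of the heavy-chain reads of cyFT. Without them B2M in cyFT was 1363 CPM, 1.38-fold (1.35 to 1.42) the level of cyAC, and the heavy chains were 684 CPM, a ratio of 0.934 (0.905 to 0.964) to cyAC. Without them 4 members reached 10 CPM in cyFT or cyAC, and 0 of the 4 were at least 2-fold higher in cyFT, beside 10.1% of all 7736 genes.

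The macrophage and immune markers were also higher in cyFT than in cyAC. All 10 macrophage markers compared and all 8 pan-immune markers were at least 2-fold higher in cyFT, beside 12.2% of all genes higher and 3.92% lower. Only CD68 and SRGN reached 10 CPM in cyAC, and the others entered through cyFT alone. LYZ, by which the 18 cells were picked out, is itself 1 of the 10. The summed levels of the macrophage and pan-immune markers were 1140 and 452 CPM in cyFT against 39.3 and 43.0 CPM in cyAC. In pre- and post-transplant cyiPS-Cart the sums were 8.31 and 5.66 CPM for macrophage markers and 18.1 and 6.2 CPM for immune markers. In the transplant LYZ, CORO1A and FCER1G had 0 reads, PTPRC 6 and C1QC 14.

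**Figure D4:**
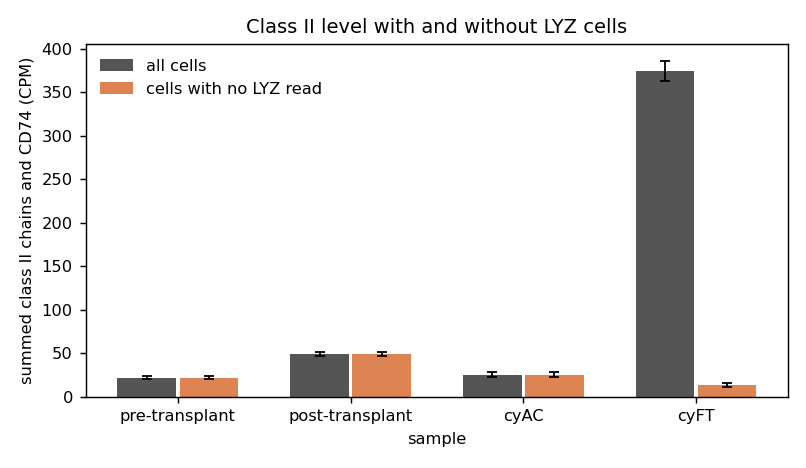
Summed level of the class II chains and CD74 in CPM, as bars from 0 with exact Poisson 95% intervals, in all cells and in cells without LYZ reads, for each sample. The cyFT bar falls from 375 CPM to 13.3 CPM when its 18 LYZ cells are left out, and the other 3 samples stay where they were.

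In the transplant, CD74 and Mafa-DRB reads were in a few cells, 11 and 6 of 320, and no cell had LYZ reads. CD74 had reads in 11 post-transplant cells, from 13 to 282 reads each. All 11 had GFP-polyA reads, 0 had LYZ or PTPRC reads, and 1 had CD14 reads (14). COL1A1 reads were in 9 of the 11, against 54 of all 320 cells, and ACAN reads in 10. Mafa-DRB was found in 4 of the 11, with 19 to 96 reads, while HLA-DRA had at most 3 reads in any of them. Their B2M level was 9604 CPM, against 2558 CPM in the other 309 cells.

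The largest of these cells held 282 of the 680 CD74 reads of the sample and 4791 B2M reads, and it is the cell rich in interferon genes described above. Without it CD74 fell from 22.8 to 13.5 CPM in the transplant, a log2 ratio of 0.61 to pre-transplant cells, and the class II sum from 49.3 to 36.6 CPM. By quality, 5 of the 11 were removed by the stricter cell filter and 1 was marked as a doublet, and their median mitochondrial share was 2.92% against 1.67% in the others. A low count set to 0 by the background correction would not be seen, so cells with fewer CD74 reads cannot be counted. The log2 ratio of CD74 to pre-transplant cells, which kept such counts, has the same limit.

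Below that level, scattered reads were present. HLA-DRA had 1 to 5 reads in each of 43 post-transplant cells (13.4%, and 2.50% when thinned), and 39 of those cells had no CD74 reads. For comparison, the leukocyte gene LAPTM5 had reads in 5.00% of post-transplant cells and PTPRC in 1.25%. HLA-DMA had reads in 36.3% of post-transplant cells and 23.8% of pre-transplant cells, and in 10.9% and 7.84% when thinned. In the pre-transplant organoids CD74 had reads in 111 of 320 cells with at most 6 reads in any cell.

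**Figure D5:**
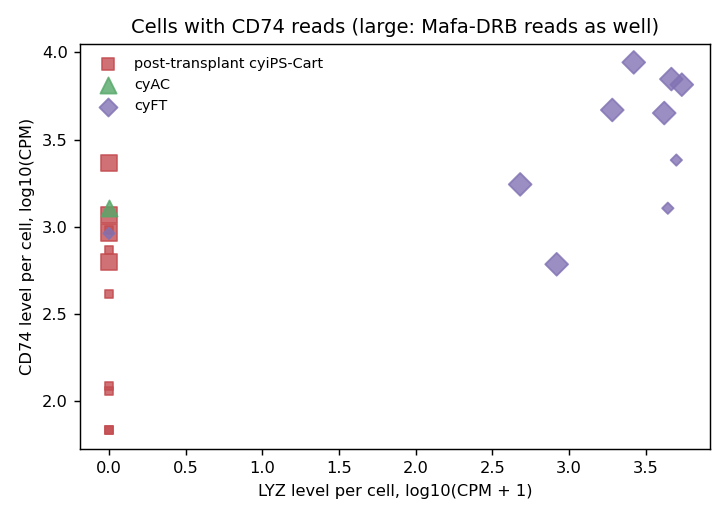
Level of LYZ as log10(CPM + 1) on the horizontal axis and of CD74 as log10(CPM) on the vertical axis. Only the cells with CD74 reads are shown, 11 of post-transplant cyiPS-Cart, 1 of cyAC and 10 of cyFT, with large points for those with Mafa-DRB reads. In cyFT 9 of the 10 cells with CD74 reads also have LYZ reads, and in the transplant 0 of 11 do.

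In cyFT the CD74 cells held macrophage markers. Of 10 such cells 9 had LYZ, CD14 and LAPTM5 reads, 0 had COL1A1 reads, 7 had reads of ACAN (at most 701), 1 had COL2A1 reads (2297), 5 had reads of PECAM1 (at most 11) and 5 of TIE1 (at most 17), both endothelial genes, and CD74 was at 25 to 457 reads in each. HLA-DRA had reads in 6 and Mafa-DRB in 7 of them, and in 0 of the other 310 cells. The stricter filter removed 8 of the 10, and 9 of the 18 LYZ cells, whose median mitochondrial share was 6.91% against 3.62% in other cells. With that filter the class II sum of cyFT was 30.3 CPM. In cyAC the 1 cell with CD74 reads had no LYZ or LAPTM5 reads but 116 reads of PECAM1 and 14 of TIE1, beside 13 of HLA-DRA and 19 of Mafa-DRB.

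Further genes of the class II pathway were counted beside the shares of all genes. Of 12 compared between post- and pre-transplant cells, where 8.92% of all genes were higher and 18.5% lower, IFI30, a lysosomal thiol reductase, was higher (7.89 to 18.9 CPM), CTSL, CTSD and NFYA were lower, and the median was -0.44. CTSL, a lysosomal protease, went from 921 to 266 CPM. Against cyAC, CTSB and CTSD were higher and RFXAP lower of 12 in the transplant, beside 10.7% and 15.8% of all genes. Between cyFT and cyAC 5 of 13 were higher (CTSS, CTSB, LGMN, IFI30 and NFYA) and 0 lower, beside 12.2% and 3.92% of all genes. CTSS, the protease that trims the invariant chain in antigen presenting cells, had 7.53 CPM in cyAC and 82.7 CPM in cyFT, and IFI30 20.8 and 219 CPM. Between pre-transplant cyiPS-Cart and cyiPSC, the proteases CTSL, CTSB, CTSD and LGMN were higher of 13 and CTSS, NFYB and the regulatory factors RFX5, RFXAP and RFXANK lower, beside 16.5% and 37.4% of all genes. The last 3 form the complex that binds class II and class I promoters, and RFXANK had 54.2 CPM in cyiPSC and 9.76 CPM in pre-transplant cells.

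The class I partners, between cyiPSC and the organoids, were called at about the share of all genes (16.5% higher and 37.4% lower). Of 9 genes of peptide supply and loading, HSPA5 was higher in pre-transplant cells (735 to 2298 CPM) and PSMB10, PSME1, PSME2 and ERAP1 were lower. PSME2 went from 218 to 36.7 CPM and PSMB10, another immunoproteasome subunit, from 22.2 to 4.68 CPM. Of 7 interferon response genes IFI6 was higher and MX1, XAF1, UBE2L6 and PSMB10 were lower, with MX1 at 77.7 CPM in cyiPSC and 1.34 CPM in pre-transplant cells.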

How the data were processed

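The deposited values are read counts for each gene in each cell, in 1 matrix of cyiPSC and pre-transplant cyiPS-Cart (6027 cells) and 1 of 4 samples, pre-transplant cells again among them (1280 cells). The submitters' processing notes name cutadapt 3.4, Bowtie2 2.4.2, R 3.6.3 and the build GRCh38, while the methods describe assignment of reads to Ensembl transcripts of Macaca_fascicularis_6.0. The authors kept cells above the knee-plot inflection, split samples by hashtag, zeroed counts judged to be diffused background where a gene's log2 maximum exceeded 8, removed cells by genes and mitochondrial share, and reduced each sample of the 4-condition matrix to 320 cells. The 3 hashtag libraries were not used here, and 0 columns were without a sample. Cells were taken to conditions by the prefixes of their names.

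From these counts, reads were summed per sample and scaled to CPM over all listed genes (Python 3.11.15, numpy 2.4.6, pandas 2.3.3, scipy 1.17.1, matplotlib 3.10.9). No test was run, since each condition is 1 sample. A gene was compared if it reached 10 CPM in one sample or the other, and was called at a log2 ratio of CPM + 1 of at least 1 in size. Counts were also simulated for post- over pre-transplant cells, with 200 of 7016 genes changed. Of the directions 100% were recovered, with a median absolute error of 0.0798. All planted changes were past 2-fold, in genes with at least 10 CPM before transplantation, and held counting error only. Full recovery was therefore set by these choices. It checks the calculation and says nothing on differences between cells, libraries or animals. Thinning left out 45 cells of the 4-condition matrix. The stricter cell filter asked for at least 500 genes and a mitochondrial share within 3 median absolute deviations above the median. Alternatives used edgeR 4.0.16 (R 4.3.3) for TMM factors and scrublet in scanpy 1.11.5 for doublets, which marked 14 of the 6027 cells and is not taken to have worked there.

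The members and gene lists were chosen with earlier results of these data known. All members are named, with the 2 genes of largest ratio in each direction per list in most comparisons and the 5 genes most like B2M and the heavy chains. Other named genes were chosen after their values were seen. Symbols were matched without regard to letter case, settled after values had been seen, which added Mafa-B, Mafa-DQA and Mafa-DRB. Of the 16 members, 9 matched the RefSeq genes of assembly T2T-MFA8v1.1, used for names only, since its build is not that of the files. No coordinates or sequences are given. Results for 1 gene of the interferon lists are not reported here.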

Additional observations from a re-analysis of the deposited data

How the results depend on the processing

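No paired analysis was possible because each condition is 1 sample and no result comes from a test, and no replicate could be left out. Of the 114 alternative counts of members past 2-fold, 100 stayed within 1.5 times the reported count and 14 did not. Many of the 100 are reported counts of 0 that stayed at 0, and some are counts over fewer members compared. The 100 are therefore no measure of how stable the other counts are. With TMM factors, pre-transplant cyiPS-Cart over cyiPSC had 1 member higher and 1 lower, beside 26.4% and 18.8% of all genes. With at least 50 CPM and reads in 25% of cells asked for, 1 of 3 members was lower there, beside 38.45% of all genes. With that filter 4 of 4 were higher in post- over pre-transplant and in post-transplant over cyAC, beside 8.16% and 10.8%. TAP1 entered both through the transplant alone. In cyFT over cyAC 0 of 3 were higher, beside 7.06%. With no filter on low values, pre-transplant over cyiPSC had 1 higher and 6 lower, beside 12.6% and 30.1% of all genes. In cyFT over cyAC 7 were higher, beside 13.7%. A pseudocount of 10 CPM left 5 higher in post- over pre-transplant, beside 5.23% of all genes. The stricter cell filter left 4 higher in post-transplant over cyAC and 1 in cyFT over cyAC, beside 10.6% and 11.3% of all genes. In cyFT over cyAC 0 were higher without LYZ cells or without cells with at least 3 immune or macrophage markers. The shares of all genes were 10.1% and 10.5%. Fewer members and fewer cells enter by construction in the filters. The cause of the other shifts was not tested.

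Of the ratios past 2-fold, these changed sign or fell to 0 on the log2 scale. CD74 in post- over pre-transplant was -0.13 with the stricter filter. In cyFT over cyAC, HLA-DRA was 0 with the stricter filter and 0 without cells with at least 3 markers, HLA-DMA was -0.27 and Mafa-DRB -2.53 without those cells, and without LYZ cells CD74 was -0.067, HLA-DMA -0.19, HLA-DRA -1.07 and Mafa-DRB -2.81. Ratios within 2-fold or of genes below 10 CPM changed sign as well: with TMM factors, CD74 (-0.48 to 0.14), Mafa-B (-0.02 to 0.64), TAP2 (-0.41 to 0.19) and CIITA in pre-transplant over cyiPSC, with the stricter filter TAP1 in cyFT over cyAC (0.01 to -0.36) and Mafa-DRB in post-transplant over cyAC (0.65 to -0.14), without cells with at least 3 markers Mafa-B in cyFT over cyAC (0.29 to -0.34), and under some setting Mafa-DQA and CIITA there and CIITA and HLA-DOA in post- over pre-transplant. The class II sum of post-transplant cyiPS-Cart was 27.3 CPM with the stricter filter, 52.8 CPM thinned and 36.6 CPM without its richest cell. That of cyFT was 265 CPM as the mean over cells, 390.0 CPM without mitochondrial genes, 30.3 CPM with the stricter filter, 13.1 CPM without cells with at least 3 markers, 13.3 CPM without LYZ cells, 15.8 CPM without PTPRC cells, 282 CPM thinned and 278 CPM without its richest cell. The class I sum of post-transplant cyiPS-Cart was 2203 CPM as the mean over cells, 2195 CPM without mitochondrial genes, 1988 CPM with the stricter filter, 2206 CPM thinned and 2100 CPM without its richest cell. Reads of TAP1 were in 24.1%, 12.5% and 16.3% of post-transplant cells at 2 reads, at 10 reads and thinned, and those of PSMB9 in 15.9%, 6.25% and 9.69%.

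Leaving out the cell with most member reads, and matching symbols by letter case (13 members), were chosen after seeing the data. The latter gave 3 lower of 5 in pre-transplant over cyiPSC, beside 37.4% of all genes. It gave 6 higher of 8 in post- over pre-transplant and in post-transplant over cyAC, beside 8.92% and 10.7%. In cyFT over cyAC 3 of 6 were higher, beside 12.2%.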

Other observations

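Of the 14 listed ligands that T cells and NK cells read beside MHC, 6 to 10 could be compared among the tissues. Post- over pre-transplant 1 of 6 was higher and 1 lower, post-transplant over cyAC 1 of 7 and 1, and cyFT over cyAC 2 of 10 and 1. Of all genes, 8.92%, 10.7% and 12.2% were higher and 18.5%, 15.8% and 3.92% lower. CD58, an adhesion ligand of T cells and NK cells, was lower after transplantation, at 105 CPM before and 41.1 CPM after. ICAM1, another adhesion ligand, had 4.04 CPM in pre-transplant cyiPS-Cart, 4.05 CPM in post-transplant cyiPS-Cart, 213 CPM in cyAC and 92.4 CPM in cyFT, so it was 52.6-fold (43.8 to 63.6) higher in cyAC than in the transplant, with reads in 43.1% against 15.3% of cells. CD86, the costimulatory ligand of antigen presenting cells, had 0 reads in pre-transplant cells and 0.368, 0.338 and 27.9 CPM in post-transplant, cyAC and cyFT cells. IDO1, an enzyme that degrades tryptophan and restrains T cells, had 5.92 CPM in pre-transplant cells, 0 reads in post-transplant cells, 5.41 CPM in cyAC and 49.4 CPM in cyFT, where 1 cell held 41.1% of its reads. MICA, a stress ligand of the NK receptor NKG2D, had 25.1 CPM in the transplant and 6.60 CPM in cyAC, and its assignment may depend on the allele. ULBP3, another such ligand, had 7.33 CPM before and 16.4 CPM after transplantation. CD276 had 108 CPM before and 65.2 CPM after transplantation.

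Between cyiPSC and pre-transplant cyiPS-Cart, CD47, the ligand that tells macrophages not to engulf a cell, went from 14.2 to 183 CPM, and the costimulatory receptor CD40 from 15.7 to 0.25 CPM. VTCN1, an inhibitory ligand of T cells, went from 27.9 to 0.60 CPM. Of the 14 listed ligands 7 could be compared there, 3 were at least 2-fold higher and 3 lower, beside 16.5% and 37.4% of all genes.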
